A study of Mus musculus with 7 samples.

Results

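Creatine kinases and the muscle enzymes of purine nucleotide turnover were followed through 10 genes, Ckm, Ckb, Ckmt1, Ckmt2, Ak1, Ampd1, Ampd2, Ampd3, Adss and Adssl1, chosen by name from the 37975 genes of the expression table. Each name matched 1 entry. RNA had been sequenced from 2-day myotubes, fused from primary mouse myoblasts by 48 hours in 5% horse serum, and from myoblasts kept in growth medium. Both cultures carried a retroviral empty vector and descended from sorted satellite cells of 4-to-6-week-old mice. MyoD binding came from 1 ChIP sample of 2-day myotubes, so that binding in myoblasts was not analysed here.

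Muscle holds little ATP and restores it from phosphocreatine. Creatine kinase moves phosphate between creatine and ATP, with cytosolic isoforms near the sites where ATP is spent and mitochondrial isoforms where it is made. Adenylate kinase recovers ATP from ADP and leaves AMP. AMP deaminase turns that AMP into IMP, and adenylosuccinate synthase followed by adenylosuccinate lyase rebuilds AMP, which closes the purine nucleotide cycle of working muscle. Several of these steps have a muscle isoform beside a widely expressed one, and creatine kinase in blood is a classical measure of muscle damage.

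Levels are FPKM, the fragments of a transcript divided by its length and by the library's mapped total, which can be compared between genes because they are per length. Each condition had 1 value per gene, so no difference had a replicate check here, neighbouring levels within a condition could not be tested, and the read depth behind them is unknown. Calls are those of the authors' own test, at q of at most 0.05. The standard error (SE) of a log2 fold change, myotubes over myoblasts, is the one implied by the authors' test statistic. Fewer cells of a type and less RNA per cell cannot be told apart in such bulk values.

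Of the 9 members that were tested, 5 were called higher in myotubes by the authors' deposited table (Ckm, Ckb, Ckmt2, Ampd1 and Adssl1) and 2 lower (Adss and Ampd3). The same table called 6.52% of all 15966 tested genes higher and 17.3% lower. Ak1 and Ampd2 were tested and not called, and Ckmt1 was too low to be tested. The median log2((FPKM + 1)/(FPKM + 1)) of the 9 tested members was 2.20, beside -0.37 for all tested genes with a mean of at least 1 FPKM. The authors' log2 fold changes of 15416 tested genes with no value of 0 had a median of -0.41. Once centred on it, 6 members were higher, with Ak1 added, and 1 lower, since Ampd3 lost its call, beside 9.94% and 10.2% of all tested genes. At q of at most 0.01, 5 members were higher and 1, Adss, lower, beside 4.68% and 11.1% of tested genes. A change of at least 2-fold on the log2(FPKM + 1) scale, with no test, was shown upwards by 5 members and downwards by 1, beside 9.0% and 24.4% of tested genes.

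**Figure D1:**
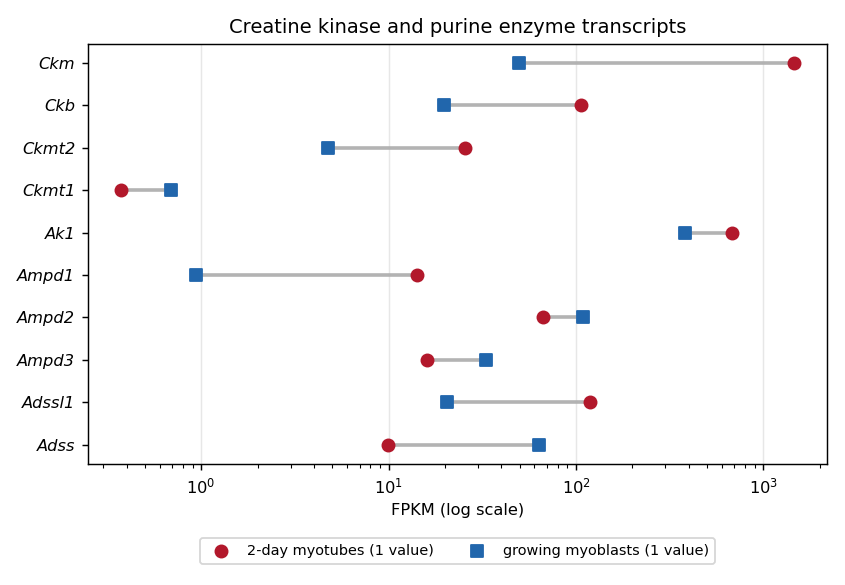
FPKM on a log axis of each of the 10 genes in 2-day myotubes (red circles) and growing myoblasts (blue squares), 1 value each. Ckm reached 1453 FPKM in myotubes, the highest of the 10 genes there, while Ak1, at 381 FPKM, was the highest in myoblasts.

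In myotubes the order of levels was Ckm at 1453 FPKM, Ak1 at 682, Adssl1 at 119, Ckb at 107, Ampd2 at 66.4, Ckmt2 at 25.4, Ampd3 at 16.03, Ampd1 at 14.2, Adss at 9.88 and Ckmt1 at 0.376. In growing myoblasts it was Ak1 at 381 FPKM, Ampd2 at 110, Adss at 63.8, Ckm at 49.4, Ampd3 at 32.9, Adssl1 at 20.4, Ckb at 19.9, Ckmt2 at 4.77, Ampd1 at 0.941 and Ckmt1 at 0.690. Ampd2 and Adss, both widely expressed isoforms, stood directly under Ak1 in myoblasts. In myotubes Adss was the lowest of the tested members. By FPKM, Ckm ranked 124 among the 15966 tested genes in myotubes and 4098 in myoblasts.

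Markers of the culture labels were clear for myotubes and mixed for myoblasts. All 5 myotube markers examined (Myog, Myh3, Acta1, Tnnt3 and Tmem8c) were called higher in myotubes in the authors' deposited table, beside 6.52% of all tested genes. Acta1 lost its call at q of at most 0.01, and it shares a merged locus with 69 other tested genes. Of 4 myoblast markers, Pax7 and Myf5 were called lower there, Myod1 was not called and Des was called higher, and after centring Myf5 lost its call. Of 22 markers of fibroblasts, adipocytes, endothelium, immune cells, Schwann cells and neurons, and smooth muscle and pericytes, 9 were tested and 7 of these called lower in the authors' deposited table, 13 were under 1 FPKM in both conditions, and Dpt, Lum and Plin1 were listed at 0 in both. Apart from the pericyte marker Rgs5, at 7.72 FPKM in myotubes and 73.1 in myoblasts, none exceeded 4.36 FPKM in myotubes or 15.1 in myoblasts. Their summed FPKM was lower in myotubes in every list, from 0.289 (endothelium) to 8.67 (smooth muscle and pericytes), against 4.27 (fibroblasts) to 75.2 (smooth muscle and pericytes) in myoblasts. Their part in the members' differences was not tested.

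Among the creatine kinases, the starts of Ckm, Ckb and Ckmt2 are shown because all 3 genes rose and each has 1 RefSeq start site. The lines give the 250 bases before that site, 5′ to 3′ on the gene's strand, from RefSeq on GRCm38.p6, a different build from the mm9 of the peaks, and capitals mark each CANNTG, the E-box letters that MyoD and its partners recognise.
Ckm, chr7:19410844-19411093 (+ strand): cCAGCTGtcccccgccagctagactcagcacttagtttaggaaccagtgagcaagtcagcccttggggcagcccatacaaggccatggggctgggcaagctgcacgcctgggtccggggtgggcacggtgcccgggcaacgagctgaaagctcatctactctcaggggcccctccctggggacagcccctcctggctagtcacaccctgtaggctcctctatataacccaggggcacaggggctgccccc
Ckb, chr12:111672339-111672588 (- strand): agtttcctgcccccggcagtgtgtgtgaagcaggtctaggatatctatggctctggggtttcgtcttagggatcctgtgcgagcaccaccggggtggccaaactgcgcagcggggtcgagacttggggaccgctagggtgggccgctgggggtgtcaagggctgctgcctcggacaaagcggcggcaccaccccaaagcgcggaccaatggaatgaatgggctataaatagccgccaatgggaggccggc
Ckmt2, chr13:91876886-91877135 (- strand): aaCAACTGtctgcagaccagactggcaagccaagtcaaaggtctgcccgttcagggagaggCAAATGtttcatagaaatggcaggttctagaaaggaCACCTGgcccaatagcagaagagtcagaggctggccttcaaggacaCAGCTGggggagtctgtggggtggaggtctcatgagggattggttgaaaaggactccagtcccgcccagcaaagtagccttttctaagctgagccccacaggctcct
Ckmt2 held 4 CANNTG, Ckm held 1 and Ckb held 0. The motif reads the same on both strands and was present in 66.2% of 32841 such windows over all RefSeq starts, with a mean of 1.16 a window. Windows with 3 or more made up 12.2%. The Ckm motif, 249 bases before the start, was CAGCTG, a form found in 13.0% of windows. Among the Ckmt2 motifs, 1 was CAGCTG and 1 was CACCTG, which together with CAGGTG, its other strand, was found in 17.2%. The muscle enhancer of Ckm that is a textbook target of MyoD lies farther upstream than these 250 bases. The letters are a description of these windows, not of binding.

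Ckm, the cytosolic muscle isoform that also sits at the M-line of the sarcomere, was at 1453 FPKM in myotubes and 49.4 in myoblasts. This 29.4-fold rise was called (by the authors' deposited table a log2 of 4.88 with SE 0.81 and q = 6.84e-08) and ranked 42 among the 15416 log2 fold changes. Ckb, the isoform of brain and of immature muscle, did not fall as Ckm rose. It was at 107 FPKM in myotubes and 19.9 in myoblasts (by the authors' deposited table a log2 of 2.43 with SE 0.66 and q = 0.00224). Ckm made up 93.1% of the summed FPKM of the pair in myotubes and 71.3% in myoblasts, so that it already exceeded Ckb, by 2.48 times, before differentiation. The log2 fold change of Ckm exceeded that of Ckb by 2.45 (SE 1.05, both SEs combined as independent).

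Ckmt2, the sarcomeric mitochondrial isoform, was at 25.4 FPKM in myotubes and 4.77 in myoblasts (by the authors' deposited table a log2 of 2.41 with SE 0.72 and q = 0.00558). Its fold change was close to that of Ckb, 5.33 beside 5.38, at a lower level. Ckmt1, the ubiquitous mitochondrial isoform, was at 0.376 FPKM in myotubes and 0.690 in myoblasts and was not tested. Ckmt2 gave 98.5% of the mitochondrial pair's FPKM in myotubes and 87.4% in myoblasts. The 4 creatine kinases summed to 1586 FPKM in myotubes and 74.7 in myoblasts, a ratio of 21.2. Ckmt2 was 1.60% of that sum in myotubes and 6.39% in myoblasts.

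**Figure D2:**
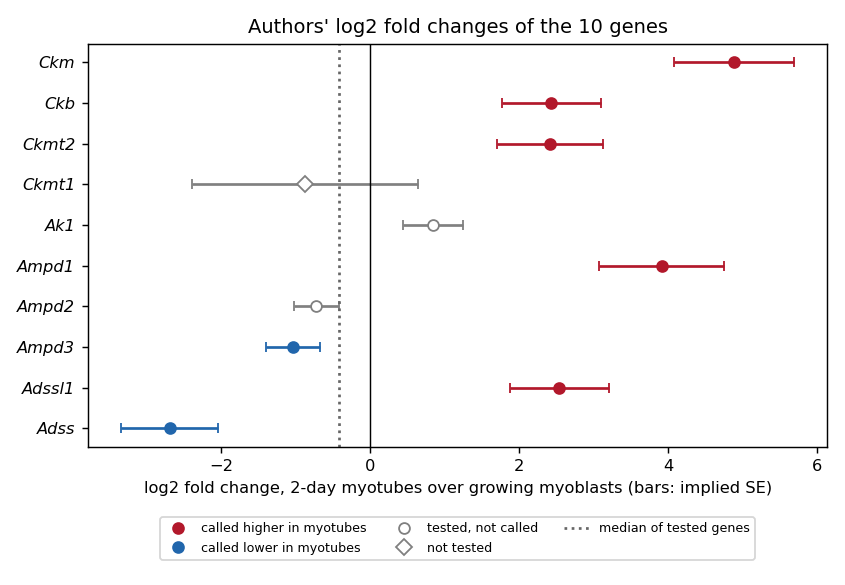
Log2 fold change, 2-day myotubes over growing myoblasts, of each gene from the authors' deposited table, with bars of 1 implied SE. Filled points are called, open circles are tested and not called, the diamond is not tested, and the dotted line is the median of -0.41 over tested genes. The 5 called higher lie from 2.41 to 4.88 and the 2 called lower at -1.04 and -2.69.

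Creatine itself is made by Gatm and Gamt and taken up through Slc6a8. Gatm, the glycine amidinotransferase, was at 98.2 FPKM in myotubes and 13.3 in myoblasts (by the authors' deposited table a log2 of 2.89 with SE 0.57 and q = 1.04e-05). Gamt, the methyltransferase of the second step, was at 89.8 FPKM in myotubes and 24.8 in myoblasts (by the authors' deposited table a log2 of 1.86 with SE 0.53 and q = 0.00379). The creatine transporter Slc6a8 was at 130 FPKM in both and was not called. Both synthesis genes rose, as did Ckm, Ckb and Ckmt2.

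Ak1, the cytosolic adenylate kinase of muscle, was at 682 FPKM in myotubes and 381 in myoblasts. By the authors' deposited table it was not called (log2 0.84, SE 0.41, q = 0.122). Centred on the median of tested genes it was at 1.25 with an adjusted p of 0.0144 from the authors' statistics. Its locus is a merged region of 82380 bp that holds the tested genes Fpgs, Eng and AL772271.2 as well, of which Fpgs was the highest at 26.9 FPKM in myotubes and 39.7 in myoblasts. Among 4 other tested adenylate kinases, 1 was called lower and 0 higher, beside 17.3% and 6.52% of all tested genes. That was Ak5, at 0.412 FPKM in myotubes and 1.77 in myoblasts (q = 0.0392 in the authors' deposited table), a call it lost after centring.

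AMP deaminases moved apart. Ampd1, the skeletal muscle isoform, was at 14.2 FPKM in myotubes and 0.941 in myoblasts (by the authors' deposited table a log2 of 3.91 with SE 0.83 and q = 4.92e-05), a 15.1-fold rise that ranked 168. Ampd2, the isoform of liver and most other tissues, was at 66.4 FPKM in myotubes and 110 in myoblasts and was not called (by the authors' deposited table a log2 of -0.72 with SE 0.30 and q = 0.0662). Ampd3, first described in red cells, was at 16.03 FPKM in myotubes and 32.9 in myoblasts and was called lower (by the authors' deposited table a log2 of -1.04 with SE 0.37 and q = 0.0233). The Ampd3 call ended after centring, at -0.63 with an adjusted p of 0.245. It also ended at q of at most 0.01. The Ampd3 locus is shared with the tested gene Rnf141, at 15.6 FPKM in myotubes and 24.7 in myoblasts, which was not called.

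Despite its rise, Ampd1 did not exceed Ampd2 or Ampd3 in myotubes. Ampd3 was only 1.13 times as high as Ampd1 there, and with 1 value each their order could not be tested. Ampd1 made up 14.7% of the family's FPKM in myotubes and 0.656% in myoblasts, while Ampd2 made up 68.7% in myotubes and 76.4% in myoblasts and Ampd3 16.6% in myotubes and 23.0% in myoblasts. Ampd2 was 4.69 times as high as Ampd1 in myotubes and 116 times in myoblasts. The summed FPKM of the 3 genes was 96.6 in myotubes and 143 in myoblasts, a ratio of 0.674. The log2 fold change of Ampd1 exceeded that of Ampd2 by 4.64 (SE 0.89) and that of Ampd3 by 4.95 (SE 0.91), while those of Ampd2 and Ampd3 differed by 0.32 (SE 0.48).

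Adenylosuccinate synthases, which join IMP and aspartate, exchanged isoforms, and their starts are shown because the pair moved in opposite directions and the start of the Adssl1 locus in mm9 lay under a MyoD peak. The windows and capitals are as for the creatine kinases.
Adssl1, chr12:112619797-112620046 (+ strand): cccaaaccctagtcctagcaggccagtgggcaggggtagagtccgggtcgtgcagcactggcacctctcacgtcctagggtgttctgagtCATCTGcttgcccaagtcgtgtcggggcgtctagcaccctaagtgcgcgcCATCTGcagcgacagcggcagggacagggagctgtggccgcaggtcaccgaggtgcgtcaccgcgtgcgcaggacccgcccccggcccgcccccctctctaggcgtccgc
Adss, chr1:177796510-177796759 (- strand): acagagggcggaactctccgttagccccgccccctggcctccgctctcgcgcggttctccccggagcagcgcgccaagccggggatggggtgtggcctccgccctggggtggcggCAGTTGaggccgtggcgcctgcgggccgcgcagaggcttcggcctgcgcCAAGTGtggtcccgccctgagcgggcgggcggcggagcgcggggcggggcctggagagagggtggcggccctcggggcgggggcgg
Each held 2 CANNTG. In Adssl1 both read CATCTG, 160 and 110 bases before the start, and in Adss they read CAGTTG and CAAGTG, 135 and 86 bases before it. Neither window held CAGCTG or CAGGTG on either strand. Over all members but Ampd1, which had no entry, 12 of 16 windows held at least 1 CANNTG, a share of 75.0% beside the 66.2% of all windows, and some of these windows belong to 1 gene and overlap.

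Adssl1, the muscle isoform, was at 119 FPKM in myotubes and 20.4 in myoblasts (by the authors' deposited table a log2 of 2.54 with SE 0.66 and q = 0.00128). Adss, the isoform of most other tissues, was at 9.88 FPKM in myotubes and 63.8 in myoblasts (by the authors' deposited table a log2 of -2.69 with SE 0.65 and q = 0.00039). Their order was thus inverted, with Adssl1 12.0 times as high as Adss in myotubes and Adss 3.12 times as high as Adssl1 in myoblasts. Adssl1 made up 92.3% of the pair's FPKM in myotubes and 24.3% in myoblasts. The sum of the pair, 129 FPKM in myotubes and 84.3 in myoblasts, changed 1.53-fold, less than either gene. The difference between the log2 fold changes, 5.23 (SE 0.93), was the largest of the pairs compared here. The next, Ampd1 over Ampd3, was close at 4.95 (SE 0.91), and the order of these pairs was not tested. Adss shares its locus with the tested gene Gm16585, at 28.1 FPKM in myotubes and 28.8 in myoblasts, which was not called.

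**Figure D3:**
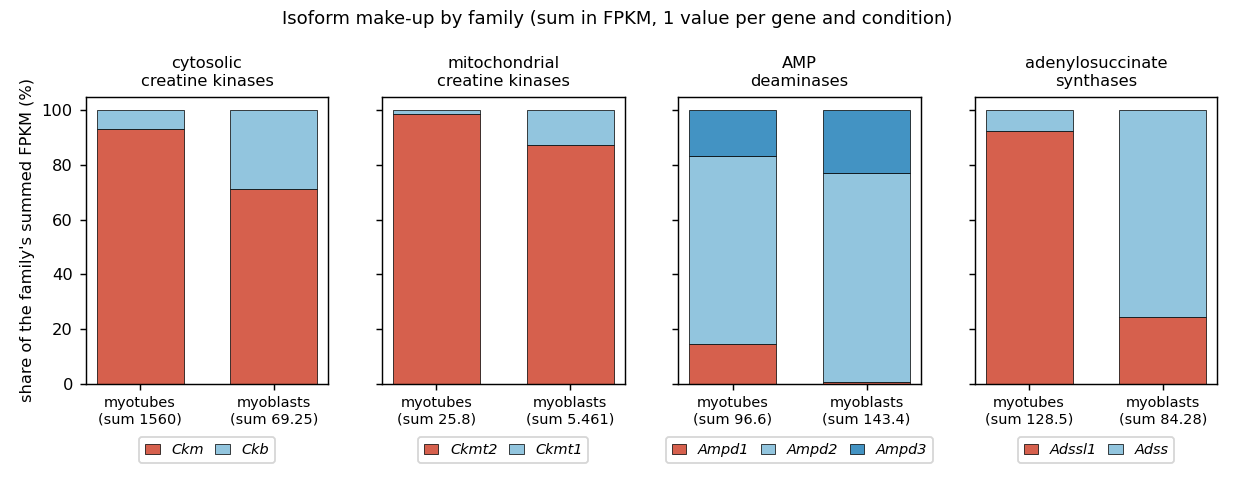
Share of each family's summed FPKM (%) held by each isoform in 2-day myotubes (left bar of each pair) and growing myoblasts (right bar), 1 value per gene and condition, with the sum in FPKM under it. Adssl1 held 92.3% of its pair in myotubes and 24.3% in myoblasts, whereas Ampd1 held 14.7% of its family in myotubes.

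The remaining enzyme of the purine nucleotide cycle, adenylosuccinate lyase (Adsl), has no muscle isoform and was at 131 FPKM in myotubes and 95.2 in myoblasts (by the authors' deposited table a log2 of 0.46 with SE 0.28 and q = 0.255, not called). In myotubes its level lay beside that of Adssl1, and both exceeded the summed AMP deaminases.

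Around these members, 53 of 55 other genes listed for creatine supply, adenylate kinases, AMP sensing, purine synthesis and salvage, nucleoside diphosphate kinases and mitochondrial exchange were found in the table. By the authors' deposited table, 4 of the 49 tested rose and 11 fell, beside 6.52% and 17.3% of all tested genes, so that both shares were near the background. After centring 11 of the 49 were higher and 8 lower, both shares above the 9.94% and 10.2% of all tested genes. The nearness to the background thus held only without centring. The 7 added by centring were Adsl, Impdh1, Gmpr, Nme6, Slc25a4, Vdac1 and Vdac2. The median log2((FPKM + 1)/(FPKM + 1)) of the 49 was -0.53, near the -0.37 of all tested genes.

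AMP-activated protein kinase, the sensor of AMP, had 2 of 7 subunits higher and 1 lower by the calls of the authors' deposited table, beside 6.52% and 17.3% of all tested genes. Prkag3, the gamma subunit of fast skeletal muscle, was at 51.5 FPKM in myotubes and 2.87 in myoblasts (by the authors' deposited table a log2 of 4.17 with SE 0.57 and q = 2.66e-11). Prkaa2, the catalytic subunit prevalent in muscle, was at 11.4 FPKM in myotubes and 1.62 in myoblasts (by the authors' deposited table a log2 of 2.81 with SE 0.69 and q = 0.000505). Prkaa1, the other catalytic subunit, was at 27.05 FPKM in myotubes and 41.3 in myoblasts, not called, and so remained above Prkaa2. Prkab1, at 30.8 FPKM in myotubes and 59.5 in myoblasts, was called lower in the authors' deposited table, a call lost after centring.

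Genes that make purines anew had 2 of 8 lower and 0 higher by the calls of the authors' deposited table, counts near the 17.3% and 6.52% of all tested genes. After centring, 2 were lower and 1 higher (Adsl), beside 10.2% and 9.94% of all tested genes. Pfas, an amidotransferase of IMP synthesis, was at 11.4 FPKM in myotubes and 69.4 in myoblasts (by the authors' deposited table a log2 of -2.61 with SE 0.46 and q = 4.97e-07). Prps2, which makes the ribose phosphate donor, was at 5.68 FPKM in myotubes and 32.4 in myoblasts (by the authors' deposited table a log2 of -2.51 with SE 0.65 and q = 0.00115). Purine salvage and breakdown had 5 of 11 lower and 0 higher by the calls of the authors' deposited table, beside 17.3% and 6.52% of all tested genes. After centring, 4 were lower and 0 higher, beside 10.2% and 9.94% of all tested genes. The 5 called lower were Ada (adenosine deaminase), Pnp (purine nucleoside phosphorylase), Xdh (xanthine dehydrogenase), Dck (deoxycytidine kinase, which also phosphorylates purine deoxynucleosides) and Nt5c (a nucleotidase). Ada was at 0.533 FPKM in myotubes and 3.64 in myoblasts, and Pnp at 1.05 FPKM in myotubes and 7.01 in myoblasts. Xdh was at 0.429 FPKM in myotubes and 2.55 in myoblasts, and Dck at 4.06 FPKM in myotubes and 22.9 in myoblasts. Nt5c, at 36.5 FPKM in myotubes and 79.6 in myoblasts, lost its call after centring. The hypoxanthine salvage enzyme Hprt was at 89.3 FPKM in myotubes and 82.5 in myoblasts and was not called.

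In the GMP branch 1 of 5 was called lower in the authors' deposited table, beside 17.3% of all tested genes. That was Gmpr2, at 1.35 FPKM in myotubes and 8.54 in myoblasts, and after centring Impdh1 and Gmpr were higher. Among nucleoside diphosphate kinases 1 of 6 was called lower, again beside 17.3%. That was Nme7, at 6.32 FPKM in myotubes and 24.3 in myoblasts, and after centring Nme6 was higher. By the authors' deposited table, 0 of the 5 mitochondrial exchange genes were called, beside 6.52% of all tested genes higher and 17.3% lower. After centring 3 were higher, beside 9.94% of all tested genes. That share also stands beside the centred gains of the GMP branch and the nucleoside diphosphate kinases. The highest mitochondrial exchange gene in myotubes was Slc25a4, the ADP/ATP carrier of heart and muscle, at 601 FPKM there and 341 in myoblasts. In myoblasts Vdac1 was higher, at 360 FPKM, and it was at 465 in myotubes. Pfas, Nt5c, Gmpr2, Prkab1, Ak5, Adsl and Vdac2 each share a merged locus with 1 other tested gene, and Prkaa1 shares one with 2.

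**Figure D4:**
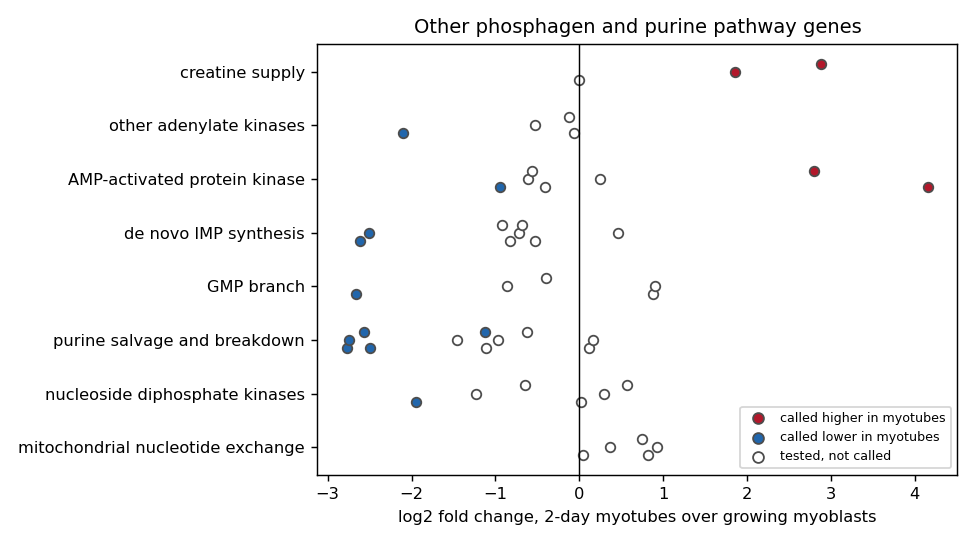
Log2 fold change, 2-day myotubes over growing myoblasts, of the 49 tested genes of 8 neighbouring pathway lists from the authors' deposited table; filled points are called. The 4 called higher are Gatm, Gamt, Prkag3 and Prkaa2, and the 11 called lower lie in 6 of the 8 lists. The points are not centred.

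A MyoD peak was assigned to a gene when its summit fell inside the locus or no more than 10 kb from it. Of the 10 members, 7 had at least 1 of 16 such peaks, beside 38.8% of the 15966 tested genes. The share grows with the length of the locus, from 23.8% of tested genes under 20 kb and 38.4% between 20 and 50 kb to 47.6% between 50 and 100 kb. Ckb, Ckmt2, Ampd1 and Adssl1, 4 of the 5 members called higher, had a peak, beside 58.5% of all genes called higher. Of the 2 called lower Ampd3 had peaks and Adss had none, beside 38.3% of all genes called lower. Ckm, with the highest fold change, and Ckmt1, with the lowest level, had none. A gene without a peak in this list, from 1 ChIP sample, is not thereby shown to lack MyoD binding. With the summit inside the locus 5 members had a peak, beside 27.5% of tested genes, with 5 kb on either side 7, beside 34.6%, and with 50 kb 9, beside 59.9%. At a p score of at least 100 it was 1, beside 12.1%.

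Each peak carries the authors' own tag count, fold enrichment over the local background and false discovery rate. The 16 peaks held 8 to 65 tags (median 17.5, beside 14 for all 10756 peaks) at 7.66-fold to 41.0-fold enrichment (median 13.1, beside 15.3). The false discovery rate was at most 5% for 1 of the 16 peaks, beside 19.4% of all peaks. Counting only peaks below that rate left 1 member, Ckb, with a peak, beside 11.7% of tested genes. Positions are in mm9, and whether a peak lay in an exon or an intron was not determined here. Strands are those of RefSeq.

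Adssl1 had 2 peaks at or next to its start. The peak at chr12:113857660-113858936 had its summit 30 bp inside the locus and spanned 597 bp before to 679 bp after the locus start, which is the 5′ end on the plus strand. It had 52 tags, more than 98.1% of all peaks, but 7.66-fold enrichment, above only 4.2% of them. A second peak with 65 tags and 12.1-fold enrichment had its summit 1731 bp before the locus, at chr12:113856082-113857059. Another, with 20 tags, lay 6503 bp inside. Adss, its counterpart, had no peak within 50 kb.

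The peak of lowest false discovery rate, 2.68%, lay at chr12:112902492-112903041, 4763 bp beyond the 3′ end of Ckb, which is on the minus strand, with 42 tags and 15.8-fold enrichment. On the other side a peak of 9 tags lay 2860 bp before the 5′ end of the Ckb locus. Ckmt2, also on the minus strand, had 1 peak of 10 tags, 380 bp past its 3′ end, and none near the start whose 4 CANNTG are shown above. Ampd1 had a peak of 15 tags 5434 bp inside the lower end of its locus and one of 20 tags 2966 bp past the upper end.

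Ampd2 had 1 peak, of 8 tags, inside its locus. Ampd3 had the most, 5 peaks of 10 to 18 tags, of which 4 lay inside a locus of 77781 bp that it shares with Rnf141, and the 1 outside, 3276 bp before the locus start, had 41.0-fold enrichment from 10 tags. Ak1 had 2, of 60 and 22 tags, in the merged locus shared with 3 other tested genes, so that neither can be given to Ak1 alone.

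**Figure D5:**
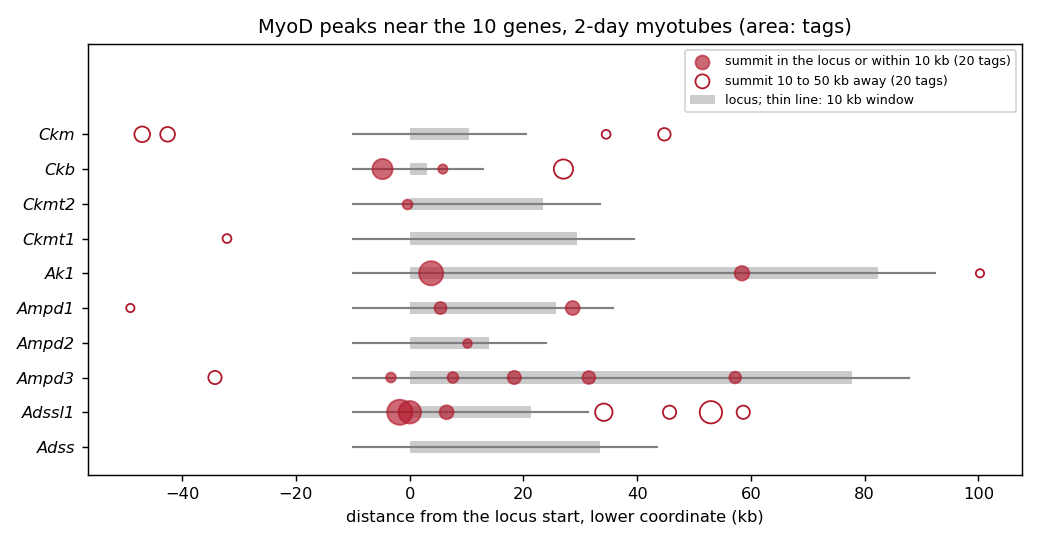
MyoD peak summits of 2-day myotubes by distance (kb) from the lower-coordinate end of each gene's locus, with grey bars for loci, thin lines for the window of 10 kb on either side, and circle area for tags. Filled circles are the 16 peaks in the window, and open circles lie 10 to 50 kb away; the row of Adss is empty, and those of Ckm and Ckmt1 have open circles only.

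Over the 2 conditions, the tested genes nearest to Ckm on the log2(FPKM + 1) scale were Myom2, Tnni2 and Actn2, at Euclidean distances of 0.41, 0.70 and 0.74. Myom2, an M-band protein, was at 1101 FPKM in myotubes and 46.3 in myoblasts. Tnni2, the fast troponin I, was at 895 FPKM in myotubes and 47.2 in myoblasts. Actn2, a Z-disc actinin, was at 903 FPKM in myotubes and 40.7 in myoblasts. Myom2 and Tnni2 had 1 MyoD peak each within 10 kb, and Actn2 had 0.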

How the data were processed

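The authors deposited expression as FPKM, with 1 value for each gene in each condition, in a table laid out as by Cuffdiff. Cuffdiff, CASAVA 1.7.0 and mm9 appear in the submitters' processing notes. Not given in the sources used here were the aligner, the annotation, the FPKM scaling and how the duplicate sequencing named in the labels' protocols was combined. The p-values and q-values are from the authors' test, per the file headers, and the q of at most 0.05 went with their mark of significance. Log2 fold changes (stored with the largest possible number for genes at 0, so treated as a score on deposit) and the test statistic, another score, are the authors'. The table was deposited in 2 identical copies and 1 was used. SEs are the log2 fold change over the test statistic. A normal p from that statistic matched the deposited p-values to within 2.68e-06 over 15416 genes, which shows how p was taken and does not check the SEs. Centring subtracts the median log2 fold change, takes p from the SE and adjusts by Benjamini-Hochberg over all tested genes. It was tested on simulated data in which few genes changed, as many up as down. More genes falling than rising, as among the calls here, was not simulated.

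MACS called the peaks, per the file headers, from 8637045 ChIP tags and 9129012 control tags at a p-value limit of 1e-05. Only 4049890 of the ChIP tags and 4371189 of the control tags were listed as unique, so that the totals overstate the usable depth. Version 1.3.7 of MACS was named by the submitters. Tags are counts, fold enrichment is a ratio, the false discovery rate is a percent and the p score is minus 10 log10 of p, a score, per the file headers. Tag counts limit precision: most peaks hold few tags, and no interval was set on them. The label of the MyoD sample refers to an earlier sample. Histone ChIP (4 samples) was not analysed here.

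Members, lists and tests were chosen with earlier results of these data known. Named genes were the 10 members, up to 4 called genes a direction of each list with the largest log2 fold changes, and the 3 genes nearest to Ckm; Nt5c, Prkaa1, Adsl, Impdh1, Gmpr, Nme6, Slc6a8, Hprt, Slc25a4, Vdac1 and Vdac2 were named after their values were seen, as were genes that share a locus. Alternatives were a q of at most 0.01, centring, a size rule of 2-fold, another pseudocount, no filter on low values, other windows and stricter peaks. Python 3.11.15, pandas 2.3.3 and scipy 1.17.1 were used.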

Additional observations from a re-analysis of the deposited data

How the results depend on the processing

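Calls of Ckm, Ckb, Ckmt2, Ampd1, Adssl1 and Adss stood at q of at most 0.01 and after centring. Members called lower were 1 at q of at most 0.01, 1 after centring and 1 by the size rule of 2-fold, each without Ampd3, in place of 2. Pathway genes called higher were 11 after centring in place of 4, while 8 of the 11 called lower kept their call. The median log2 ratio of members was 1.52 without the filter on low values, which adds Ckmt1. Members with a MyoD peak were 1 at a false discovery rate of at most 5% and 1 at a p score of at least 100, and the peaks counted were likewise 1 and 1, beside 10 with the summit inside the locus and 29 within 50 kb. On the log2(FPKM + 1) scale, an alternative chosen after seeing the data, Ampd1 exceeded Ampd2 by 3.68 and Ampd3 by 3.96, since the pseudocount lowers the change of a gene at 0.941 FPKM. No paired analysis was possible because the table holds 1 value per gene in each condition. With 1 value a condition, the implied SEs are the authors' and cannot be checked against replicates, and low peak tags limit how far peaks can be ranked.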

Other observations

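Beyond 10 kb, 13 further MyoD peaks had summits within 50 kb of a member, and 9 of the 10 members then had at least 1, beside 59.9% of tested genes. Ckm had 4 of them. The nearest, with 8 tags, 30.8-fold enrichment and a false discovery rate of 7.42%, lay 24056 bp past the 3′ end of its locus at chr7:20030808-20031062. Another, at chr7:19953778-19954293, lay 42537 bp before the locus start. It had 22 tags, a rate of 2.33% and 43.3-fold enrichment, above 98.6% of all peaks by fold. The remaining Ckm peaks had rates of 4.72% and 7.76%. Adssl1 had 4, the largest of 51 tags 31658 bp past its locus at a rate of 3.77%. The others of Adssl1 had rates of 4.89%, 12.2% and 23.6%. Ckb had 1 of 38 tags, 32.8-fold enrichment and a rate of 4.21%, 24058 bp before its 5′ end. Those of Ckmt1, Ampd1, Ampd3 and Ak1 had rates above 5%. Whether any of these belongs to the member or to another gene nearby was not tested.

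Tags and enrichment ranked the same peaks differently. The peak over the start of Adssl1 stood at rank 195 by tags and 10302 by fold among 10756, and the peak 3276 bp before the Ampd3 locus stood at rank 7086 by tags and 172 by fold.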
